A study of Mus musculus with 11 samples.

Results

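The genes described here are those of hepatic de novo lipogenesis, the synthesis of fatty acids from acetyl-CoA. They were chosen by gene symbol from a list of 10 (*Fasn*, *Acaca*, *Acacb*, *Acly*, *Scd1*, *Elovl6*, *Me1*, *Thrsp*, *Pnpla3* and *Mlxipl*). Of these, 9 were among the 13669 genes of the count table, and all 9 passed the filter on low counts together with 13334 genes in all. *Pnpla3* was not analysed here. The measurements are 3′ RNA-sequencing read counts from the livers of 11 wild-type male C57BL/6J mice on a chow diet. In 6 of them a recombinant adeno-associated virus carried a tough decoy (AAV-TuD), an RNA that sequesters miR-379 together with miR-541, whereas in the other 5 it carried a negative control sequence (AAV-NC). Both viruses were of serotype 8 and used the liver-specific LP1 promoter, so the control livers had received virus and transgene as well. The methods describe a fast of several hours before sampling for the decoy studies in general, and neither the time after virus nor the age at sampling is given for these animals in the sources used here.

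In de novo lipogenesis, citrate leaves the mitochondrion and is cleaved to acetyl-CoA by ATP citrate lyase (*Acly*). Acetyl-CoA carboxylase (*Acaca* and *Acacb*) makes malonyl-CoA, and fatty acid synthase (*Fasn*) joins these units to palmitate with NADPH, part of which comes from cytosolic malic enzyme (*Me1*). Palmitate is lengthened by the elongase *Elovl6* and desaturated by stearoyl-CoA desaturase (*Scd1*). The pathway is induced after feeding through insulin and SREBP-1c (encoded by *Srebf1*) and through sugar and ChREBP (encoded by *Mlxipl*), and *Thrsp* encodes a small protein of lipogenic tissues whose gene responds to thyroid hormone and carbohydrate.

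With AAV-TuD, *Me1* transcripts fell to a fold of 0.501 of the control level (95% interval 0.371 to 0.677) and *Mlxipl* transcripts to 0.809 (0.706 to 0.928). None of the 9 members rose, with 0 higher at an unadjusted p under 0.05 in edgeR and 0 called higher by DESeq2 or limma-voom. The other 7, among them *Fasn*, *Acaca*, *Acly*, *Scd1* and *Elovl6*, did not pass the test, and their log2 fold changes lay between -0.35 and 0.08. Thus 2 of 9 members were called lower, where 4.33% of all genes tested were lower, 7.24% were higher and 11.6% were called in either direction (edgeR quasi-likelihood test, Benjamini-Hochberg adjusted p under 0.05). The members had a median log2 fold change of -0.14, compared with 0.00 over all genes tested. No member had groups of livers that did not overlap in reads scaled to a common library total (CPM), which 7.38% of all genes tested had.

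**Figure D1:**
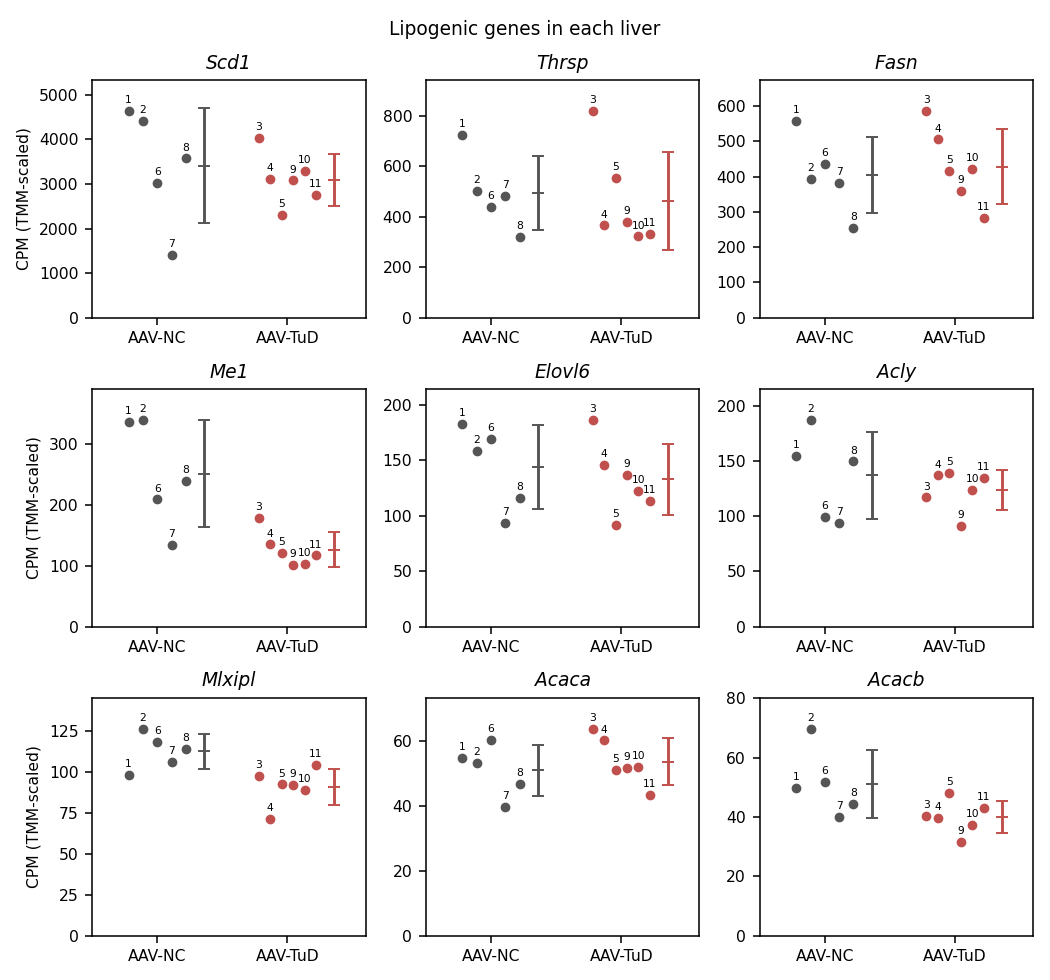
CPM scaled by TMM (a composition-corrected library size) of the 9 lipogenic genes on linear axes from 0, with 1 point per liver labelled by its replicate number, and the mean with SD of the group as a bar at its right. Me1 lay between 101 and 179 CPM in the 6 AAV-TuD livers and between 134 and 339 CPM in the 5 AAV-NC livers, and the groups overlapped for every gene shown.

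The gene counts summed to between 8148531 and 12043959 reads in a liver, and every member had at least 316 reads in each liver. The *Mup* genes, which encode major urinary proteins, accounted for 38.6% of reads in AAV-NC liver 7, 30.9% in AAV-TuD liver 3, 28.4% in AAV-TuD liver 5 and between 8.09% and 18.7% in the other livers. When only library size was used for scaling, the median gene moved from a log2 fold change of 0.00 to 0.23, and 95.1% rather than 62.6% of called genes were higher with AAV-TuD. Differences below are therefore read against that median. Bulk RNA cannot tell fewer cells of a type from less RNA per cell. The labels name no batch, and separate animals are given only as separate liver samples, so p-values measure the spread between these samples.

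The sequences shown here are the mature miRNAs that the decoy was built to bind, given first, and the short matches to their seeds in the members' 3′ UTRs. In the miRNAs (RefSeq, GRCm38.p6, 5′ to 3′) the capitals mark the seed, bases 2 to 8.
miR-379-5p, plus strand, chr12:109709065-109709085: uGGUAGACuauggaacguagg
miR-541-5p, plus strand, chr12:109742422-109742446: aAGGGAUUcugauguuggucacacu
No member had the complement of bases 2 to 8 of either miRNA in its longest annotated 3′ UTR (GENCODE M21, GRCm38), and of 10959 tested genes with such a UTR 5.17% had one for miR-379-5p and 8.92% for miR-541-5p. The shorter complement of bases 2 to 7 was present for miR-379-5p in 3 of the 9 members (*Fasn*, *Acacb* and *Thrsp*), against 25.6% of genes, and for miR-541-5p in 4 (*Acaca*, *Scd1*, *Thrsp* and *Mlxipl*), against 30.8%. *Me1*, *Acly* and *Elovl6* had neither. These are matches of letters and not measured binding sites. The seeds of other miRNAs of the cluster, some of which the decoy also lowered in the paper, were not searched. Of the 8 matches, 6 are shown with the letters that pair with bases 2 to 7 in capitals, from the mRNA strand.
Fasn, site for miR-379-5p on the minus strand at chr11:120807568-120807595: actgagcctttTCTACCgtgtggcattt
Fasn, site for miR-379-5p on the minus strand at chr11:120806238-120806265: tctatagtgtcTCTACCtagttagagtt
Thrsp, site for miR-379-5p on the minus strand at chr7:97413165-97413192: gggatgctgtaTCTACCtcacacggtta
Thrsp, site for miR-541-5p on the minus strand at chr7:97413041-97413068: ctcttgcttttATCCCTggggaaaggct
Scd1, site for miR-541-5p on the minus strand at chr19:44397392-44397419: ctcctgaatacATCCCTccttgttccta
Mlxipl, site for miR-541-5p on the plus strand at chr5:135137516-135137543: ctaatgctatgATCCCTggtgactcata
*Thrsp* was the member with a match to both miRNAs, and its log2 fold change was -0.10. *Me1*, the member with the largest difference, had no match to either seed. Among the 6 members with a 6-base match, *Mlxipl* was called lower and none was called higher.

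*Mlxipl* (ENSMUSG00000005373, GRCm38 chr5:135089890-135138382, plus strand) encodes the glucose-responsive factor ChREBP. Its level was 98.2, 126, 118, 106 and 114 CPM in AAV-NC livers 1, 2, 6, 7 and 8, and 97.3, 71.2, 92.3, 91.8, 88.9 and 104 CPM in AAV-TuD livers 3, 4, 5, 9, 10 and 11. Of the AAV-TuD livers, 5 of 6 were below all controls, and liver 11 lay above AAV-NC liver 1. The means were 112 ± 10.5 CPM (SD, n = 5) and 91 ± 11.1 CPM (n = 6), and the log2 fold change was -0.30 (SE 0.09, 95% interval -0.50 to -0.11, adjusted p = 0.0436, edgeR). This call was close to the threshold, since leaving out 1 liver ended it for 8 of the 11 livers (AAV-NC 2, 6, 7 and 8, and AAV-TuD 4, 5, 9 and 10) with log2 fold changes from -0.35 to -0.24 and adjusted p from 0.033 to 0.109 over all 11. It also ended with upper-quartile factors (-0.30, adjusted p = 0.0564) and with library size alone (-0.09, adjusted p = 0.777), where *Mlxipl* was at -0.32 relative to the median of all genes. The antisense gene *Gm43500* overlaps *Mlxipl* over 884 bases and had 4873 reads in all livers against 10978 of *Mlxipl*, and the strand setting of the counting is not given in the sources used here, so the reads of this pair cannot be assigned with certainty. *Gm43500* itself had a log2 fold change of -0.25 (adjusted p = 0.289).

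*Me1* (ENSMUSG00000032418, GRCm38 chr9:86581371-86695953, minus strand) encodes the cytosolic malic enzyme, which turns malate into pyruvate and yields NADPH. Its level was 336, 339, 209, 134 and 239 CPM in AAV-NC livers 1, 2, 6, 7 and 8. It was 179, 135, 121, 101, 103 and 117 CPM in AAV-TuD livers 3, 4, 5, 9, 10 and 11. All AAV-TuD livers were below the control median of 239 CPM, and the groups overlapped only through AAV-NC liver 7, which lay below AAV-TuD livers 3 and 4. The means were 251 ± 87.5 CPM (n = 5) and 126 ± 29 CPM (n = 6), and the log2 fold change was -1.00 (SE 0.20, 95% interval -1.43 to -0.56, adjusted p = 0.00621, edgeR). *Me1* was called lower in all 9 other settings tried, from -1.30 without the 3 livers with most *Mup* reads (adjusted p = 0.000337) to -0.83 with library size alone. It was also called with each of the 11 livers left out, between -1.16 and -0.87. Other genes whose products yield cytosolic NADPH did not pass the test. Their log2 fold changes were 0.28 for *G6pdx* (adjusted p = 0.61) and 0.11 for *Pgd* (adjusted p = 0.684), the pentose phosphate dehydrogenases, and -0.09 for *Idh1* (adjusted p = 0.515), the cytosolic isocitrate dehydrogenase.

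*Acly* (ENSMUSG00000020917), which supplies acetyl-CoA from citrate, was at 155, 187, 99.7, 93.8 and 149.7 CPM in AAV-NC livers 1, 2, 6, 7 and 8. In the AAV-TuD livers it was between 91.1 and 139.5 CPM with a median of 129.7 CPM. The ranges overlapped, and the log2 fold change was -0.14 (95% interval -0.49 to 0.20, adjusted p = 0.624).

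*Acacb* (ENSMUSG00000042010) encodes the carboxylase at the mitochondrial surface, whose malonyl-CoA restrains fatty acid entry into mitochondria. It was at 49.8, 69.6, 51.7, 40.1 and 44.3 CPM in AAV-NC livers 1, 2, 6, 7 and 8, and between 31.6 and 48 CPM with a median of 40 CPM with AAV-TuD. All 6 AAV-TuD livers were below the control median, and 3 were below every control. The log2 fold change was -0.35 (95% interval -0.63 to -0.08), with an unadjusted p = 0.0156 and an adjusted p = 0.0912 over all genes (edgeR). *Acacb* passed the threshold without AAV-NC liver 7 (-0.43, adjusted p = 0.0498). *Acaca* (ENSMUSG00000020532), the cytosolic carboxylase of fatty acid synthesis, was between 39.6 and 60.3 CPM in the control livers and between 43.3 and 63.7 CPM in the AAV-TuD livers. Its log2 fold change was 0.07 (95% interval -0.17 to 0.31, adjusted p = 0.737), and as a fold the interval ran from 0.891 to 1.24.

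*Fasn* (ENSMUSG00000025153), the synthase that builds palmitate, was at 557, 394, 436, 381 and 255 CPM in AAV-NC livers 1, 2, 6, 7 and 8, and between 282 and 585 CPM with a median of 418 CPM with AAV-TuD. The control range lay almost wholly within that of the AAV-TuD livers, and the log2 fold change was 0.08 (95% interval -0.31 to 0.47, adjusted p = 0.835). Its sign was not stable, with -0.05 without AAV-NC liver 8, -0.03 without AAV-TuD liver 3 and 0.00 in limma-voom.

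*Scd1* (ENSMUSG00000037071), which puts the double bond into stearate and palmitate, was at 4629, 4416, 3022, 1404 and 3570.5 CPM in AAV-NC livers 1, 2, 6, 7 and 8, and between 2304 and 4039 CPM with a median of 3092 CPM in the AAV-TuD livers. Its log2 fold change was -0.14 (95% interval -0.64 to 0.36, adjusted p = 0.762). AAV-NC liver 7 held the lowest *Scd1* value of all 11 livers, and the log2 fold change was -0.34 without it. *Elovl6* (ENSMUSG00000041220), the elongase of palmitate, was between 93.6 and 183 CPM in the control livers and between 91.5 and 186 CPM with AAV-TuD, and its log2 fold change was -0.12 (95% interval -0.50 to 0.26, adjusted p = 0.734). *Thrsp* (ENSMUSG00000035686) was between 321 and 725 CPM in the control livers and between 322 and 818 CPM with AAV-TuD, with a log2 fold change of -0.10 (95% interval -0.60 to 0.41, adjusted p = 0.844). The highest *Thrsp*, *Fasn*, *Acaca* and *Elovl6* values of all livers were in AAV-TuD liver 3. With library size alone, *Acly*, *Scd1*, *Elovl6* and *Thrsp* changed sign to 0.06, 0.04, 0.08 and 0.08, all below the 0.23 of the median gene.

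**Figure D2:**
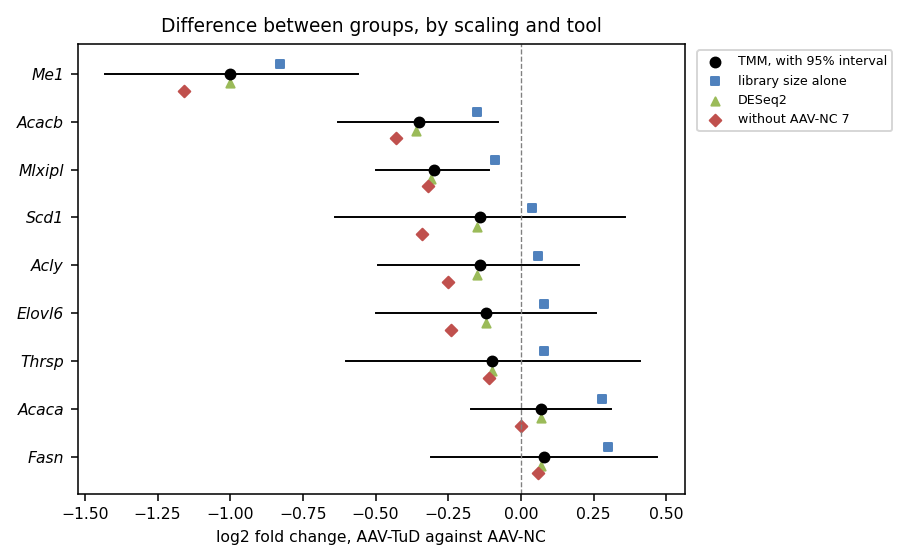
Log2 fold change of each member with AAV-TuD against AAV-NC (horizontal axis), as TMM-scaled edgeR estimates with 95% intervals, and as point estimates with library size alone, with DESeq2 and without AAV-NC liver 7. The interval of Me1, from -1.43 to -0.56, lies farthest from 0, and library size alone moves every point to the right.

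Since the assay reads 1 end of each transcript, CPM can be set side by side between genes without a correction for length. *Scd1* was by far the most abundant member, with a mean of 3237 CPM over the 11 livers and 67.7% of the CPM of the 9 genes together. *Thrsp* (477 CPM), *Fasn* (417), *Me1* (183), *Elovl6* (138), *Acly* (130.0), *Mlxipl* (101), *Acaca* (52.4) and *Acacb* (45) followed. The order held in every liver only for *Scd1* above *Thrsp*, *Fasn* above *Me1* and *Mlxipl* above *Acaca*. The position of *Me1* differed by group, since it was above *Elovl6* in 5 of 5 control livers and in 2 of 6 AAV-TuD livers. *Thrsp* was above *Fasn* in 5 of 5 control livers and 4 of 6 AAV-TuD livers, and *Acaca* above *Acacb* in 3 of 5 and 6 of 6. *Elovl6* was above *Acly* in 2 of 5 and 3 of 6, and *Acly* above *Mlxipl* in 3 of 5 and 5 of 6, so these neighbours were not separated beyond the spread of the livers in either group. The summed level of the 9 genes was between 2775 CPM (AAV-NC liver 7) and 6788 CPM (AAV-NC liver 1), with group means of 5054 CPM for AAV-NC and 4550.0 CPM for AAV-TuD.

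Ratios of reads between members within a liver do not depend on the scaling of the library, and were examined after the members' values had been seen. The log2 ratio of *Me1* to each of the other 8 members was lower on average with AAV-TuD, by between 0.61 and 1.03. Of 36 pairs of members, 5 ratios passed an adjusted p of 0.05, and all 5 held *Me1*. *Me1* was the member with the largest log2 fold change (-1.00) and its reads enter all 8 of its ratios. These ratios therefore do not count as support separate from the call of *Me1*. *Me1* reads relative to *Scd1* reads had a log2 ratio of -3.73 ± 0.20 (SD, n = 5) in the control livers and -4.63 ± 0.28 (n = 6) with AAV-TuD, with no overlap (2-sided exact permutation test p = 0.00216, the smallest that 462 splits allow, adjusted p = 0.039). *Me1* relative to *Acaca*, at 2.24 ± 0.44 and 1.21 ± 0.22, did not overlap either, with the same exact p and adjusted p. For *Fasn*, *Acly* and *Elovl6* as denominators the differences were -1.03, -0.84 and -0.84 (exact p = 0.00649, adjusted p = 0.0468 each). AAV-NC liver 7, whose *Me1* level in CPM lay among those of the AAV-TuD livers, had a log2 ratio of *Me1* to *Scd1* of -3.39, the highest of all 11 livers. Its *Scd1* level was also the lowest of all livers (1404 CPM). With *Acacb*, *Mlxipl*, *Acly*, *Thrsp* and *Fasn* as denominators, liver 7 was the lowest control and lay within the AAV-TuD range. For *Fasn* it was at -1.51, below the -1.27 of AAV-TuD liver 11. The ratios of *Me1* to *Acacb*, *Thrsp* and *Mlxipl* differed by -0.61, -0.81 and -0.64 and did not pass (exact adjusted p = 0.1, 0.1 and 0.195). Ratios between the remaining members did not pass the test, with exact adjusted p of at least 0.175.

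**Figure D3:**
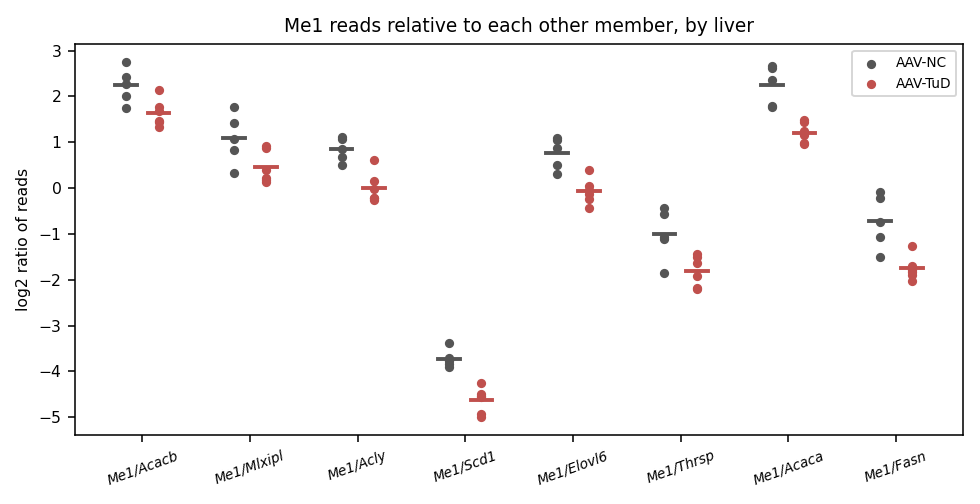
Log2 ratio of Me1 reads to the reads of each other member (vertical axis), with 1 point per liver and a bar at the mean of the group. For Scd1 and Acaca as denominators all 6 AAV-TuD livers lie below all 5 AAV-NC livers.

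Between livers of the same group the members rose and fell together in part. With the group mean removed, 31 of 36 pairs had a positive correlation of log2 CPM over the 11 livers, with a median Pearson r of 0.37, whereas the members had a median r of 0.00 with 13325 other genes. An r above 0.5 was found for 38.9% of the pairs of members and for 8.14% of their pairs with other genes. The members lay between percentiles 84.5 and 99.7 of mean CPM, and the other genes were not matched to them in level. The pair of *Acaca* and *Elovl6* had r = 0.85 and Spearman's rho = 0.89 (exact permutation of livers within groups, adjusted p = 0.0475 and 0.0442 over 36 pairs), and r was 0.78 without the 2 livers farthest from the median of the first gene. *Scd1* with *Me1* (r = 0.87, rho = 0.74) and *Scd1* with *Elovl6* (r = 0.79, rho = 0.70) passed by Pearson's r (exact adjusted p = 0.0475 each) and not by rho (exact adjusted p = 0.148 and 0.205), and r was 0.68 and 0.66 without the 2 livers chosen in the same way. With 1 liver fewer, 0 or 1 pair passed, whichever liver was left out, while the median r stayed between 0.30 and 0.46. *Me1* had the closest relation to the mean of the other members (r = 0.92), and *Mlxipl* had none (r = -0.04). All values of a liver share its library and scaling factor. With library size alone, the median r was 0.62 and 6 pairs passed.

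**Figure D4:**
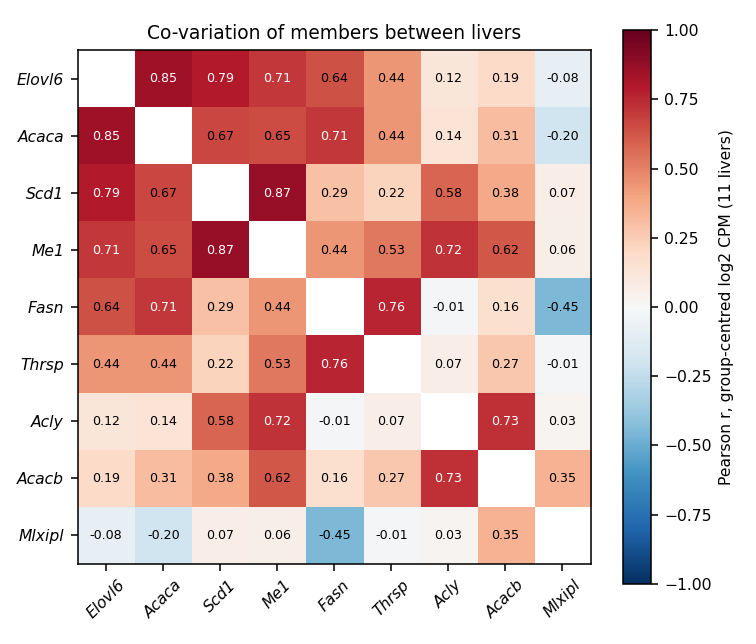
Pearson r between members over 11 livers after removal of the group mean of log2 CPM, printed in each cell, on a colour scale from -1 to 1. Elovl6, Acaca, Scd1 and Me1 form the block of high values, between 0.65 and 0.87, and the row of Mlxipl lies between -0.45 and 0.35.

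In these within-group deviations, AAV-TuD liver 3 was the highest, with 8 of 9 members above its group mean and an average deviation of 0.93 SD, and AAV-NC liver 7 the lowest, with 1 of 9 above and an average of -1.19 SD. These are the livers with 30.9% and 38.6% *Mup* reads, which thus lay at opposite ends, and AAV-TuD liver 5 with 28.4% had an average of 0.00 SD. When these 3 livers were left out, a comparison added after the data were seen, 2 members were again called lower, *Me1* (-1.30) and *Acacb* (-0.50, adjusted p = 0.0369, edgeR), and *Mlxipl* was not (-0.35, adjusted p = 0.0718). *Fasn* (-0.07) and *Acaca* (-0.05) were then below 0 and still far from the threshold. In the deviations with no liver left out, the livers with replicate numbers 1, 2 and 3 had the highest averages (0.65, 0.84 and 0.93 SD). The other livers lay between -1.19 and 0.10 SD. Whether the replicate numbers follow an order of processing is not given, and its part in the co-variation was not tested.

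Of 8363 other genes that averaged 50 reads or more, those whose deviations were most like the average of the members were *Chuk* (r = 0.91), *Erhrt-ps* (0.89), *Gm48795* (0.88), *Top3b* (0.88), *Gm12599* (0.88), *Sanbr* (0.88), *Nbn* (0.86) and *Cdkn2aipnl* (0.86), over 11 livers and chosen for this value. *Acss2*, which makes acetyl-CoA from acetate, had r = 0.82 and rank 13, *Gpam*, the mitochondrial acyltransferase that starts glycerolipid synthesis, r = 0.72 and rank 91, and *Pklr*, the liver pyruvate kinase, r = 0.68 and rank 155. *Srebf1* had r = 0.55, and *Srebf2* and *Nr1h3* had r of -0.08 and -0.12.

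Among 26 tested lipogenic regulators, 2 were called higher and 1 lower, which is 11.5% beside 11.6% of all genes tested, and the median log2 fold change was 0.00. The calls were *Nr0b2* (1.02, adjusted p = 0.00546), the small heterodimer partner that represses nuclear receptors, and *Usf2* (0.32, adjusted p = 0.0332), an E-box factor, both called higher, and *Nfyb* (-0.43, adjusted p = 0.00348), a subunit of the CCAAT-binding factor NF-Y, lower. *Nr0b2* was at 4.65 to 9.79 CPM in the control livers and at 10.8 to 22.7 CPM with AAV-TuD, and *Nfyb* at 49.4 to 65.2 CPM and 39.6 to 46.6 CPM, so that neither overlapped. *Srebf1* itself was at 28.3 to 69.6 CPM and 23.2 to 75.5 CPM, with a log2 fold change of -0.10 (95% interval -0.67 to 0.48, adjusted p = 0.87) that was 0.10 with library size alone. *Srebf2* (0.16), *Nr1h3* (-0.01, the liver X receptor gene), *Insig1* (-0.14) and *Insig2* (0.40), whose products hold SREBP in the endoplasmic reticulum, did not pass. The call of *Usf2* ended when any of 6 livers was left out.

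Genes that feed carbon into the pathway included 3 called lower and 1 higher of 25 tested, with a median of -0.07. Over all genes tested, 4.33% were called lower and 7.24% higher. Those called lower included *Khk* (ketohexokinase, log2 fold change -0.46, adjusted p = 0.0134) and *Tkfc* (triokinase, -0.45, adjusted p = 0.0345), both enzymes of fructose breakdown. For both genes 5 of 6 AAV-TuD livers were below all controls and liver 3 was not. *Tkfc* lost its call when any of 8 livers was left out. *Taldo1*, of the pentose phosphate pathway, was the gene called higher (0.26, adjusted p = 0.0229), and its call ended without AAV-NC liver 6 (0.23) and without AAV-NC liver 7 (0.25). *Pklr* had a log2 fold change of -1.13 (95% interval -1.91 to -0.35) at 3.11 to 12.8 CPM in the control livers and 1.64 to 7.79 CPM with AAV-TuD, and missed the threshold (adjusted p = 0.059, edgeR). It passed without AAV-TuD liver 3 (-1.50), without AAV-NC liver 8 (-1.34), in limma-voom (-1.27), with library size alone (-0.97) and without the 3 livers with most *Mup* reads (-1.62, adjusted p = 0.0172). *Acss2* (0.23) and the citrate carrier gene *Slc25a1* (-0.02) did not pass.

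Of 13 genes around acetyl-CoA carboxylase and malonyl-CoA, 1 was called lower and none higher, or 7.69% in all beside 11.6% of all genes tested. In edgeR 3 were higher at an unadjusted p under 0.05, and none was called higher by DESeq2 or limma-voom. The lower gene was *Prkaa2*, a catalytic subunit of the AMP-activated kinase that inhibits the carboxylases, at 35.7 to 46.3 CPM in the control livers and 17.5 to 34.6 CPM with AAV-TuD (log2 fold change -0.69, adjusted p = 0.00499). *Mid1ip1*, which encodes an activator of the carboxylases related to *Thrsp*, had a log2 fold change of 0.07 (adjusted p = 0.873), and was at -0.08 without the 3 livers with most *Mup* reads. In elongation and desaturation, 3 genes were called lower and 1 higher of 18, or 22.2% in all beside 11.6% of all genes tested. *Elovl2* (-0.65, adjusted p = 0.00442) and *Fads1* (-0.52, adjusted p = 0.00669) act on polyunsaturated fatty acids, *Cyb5b* (-0.29, adjusted p = 0.0406) encodes an outer mitochondrial membrane cytochrome b5, and *Fads3* (1.05, adjusted p = 0.00445) was higher at 1.46 to 4.92 CPM over all livers. Other elongases and desaturases did not pass, with log2 fold changes of 0.79 for *Scd2*, -0.17 for *Elovl5*, -0.68 for *Elovl3* and -0.33 for *Fads2*, of which *Scd2* passed in DESeq2 (0.79, adjusted p = 0.0434) and in limma-voom (0.89, adjusted p = 0.0481). *Cyb5b* lost its call when any of 8 livers was left out.

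Of 18 genes from acyl-CoA to triglyceride, 3 were called lower and 1 higher, again 22.2% beside 11.6% of all genes tested. *Dgat2*, the acyltransferase of the last step of triglyceride synthesis, was at 193 to 239.5 CPM in the control livers and 147 to 181 CPM with AAV-TuD, with no overlap (log2 fold change -0.40, adjusted p = 0.006). *Lpin1* (-0.89, adjusted p = 0.0458), a phosphatidate phosphatase, and *Acsl4* (-0.44, adjusted p = 0.0112), an acyl-CoA synthetase, were lower, and *Gpat3* (1.33, adjusted p = 0.0153) was higher at 0.681 to 3.92 CPM over all livers. The call of *Lpin1* ended when any of 8 livers was left out and in DESeq2. *Gpam*, as a member of this list, was at 0.07 (adjusted p = 0.864). Of 15 genes induced by fasting, 1 was called, or 6.67% beside 11.6% of all genes tested. It was *Pdk4*, called higher (0.94, adjusted p = 0.0442, edgeR) at no more than 2.19 CPM, and the call ended when any of 9 livers was left out. None of 15 core clock genes was called by edgeR, DESeq2 or limma-voom, and 1 had an unadjusted p under 0.05 in edgeR. Without the 3 livers with most *Mup* reads, the calls of *Usf2*, *Taldo1*, *Acsl4*, *Lpin1* and *Pdk4* ended. The lower calls of *Nfyb*, *Khk*, *Tkfc*, *Prkaa2*, *Elovl2*, *Fads1*, *Cyb5b*, *Dgat2*, *Acsl4* and *Lpin1* kept their sign and ended with library size alone, where the median gene was at 0.23.

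**Figure D5:**
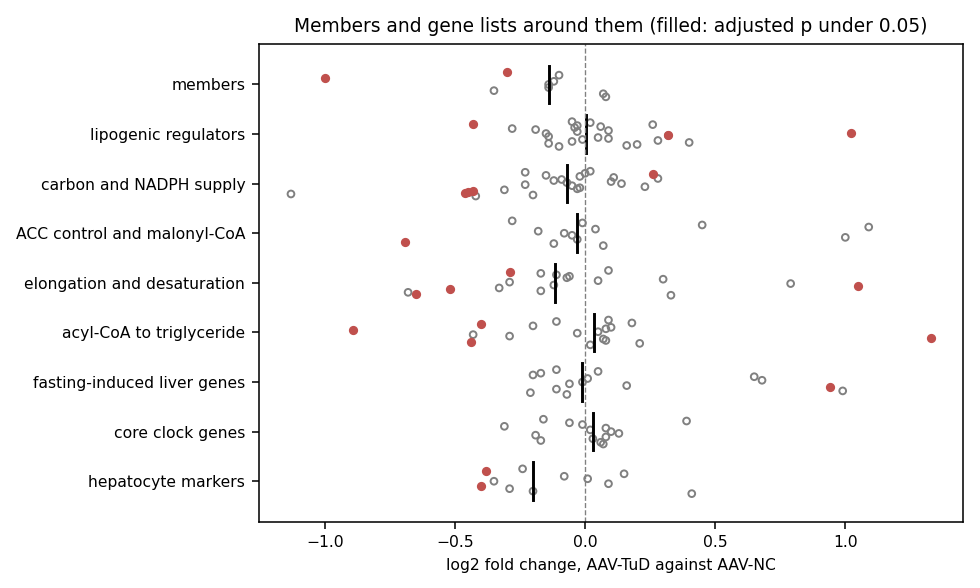
Log2 fold change with AAV-TuD against AAV-NC (horizontal axis) of each tested gene of the members and of the lists around them, with 1 circle per gene, filled where the adjusted p was under 0.05, and a bar at the median of the list. Of the marker lists only that of hepatocytes is drawn, with a median of -0.20. The medians of the 7 lists around the members lie between -0.12 (elongation and desaturation) and 0.04 (acyl-CoA to triglyceride), and Me1 is the lowest of the members.

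Markers of other liver cells moved beside these differences. For comparison with the counts below, 4.33% of all genes tested were called lower and 7.24% higher. Of the hepatocyte markers, 2 of 11 (*Apob* and *Hnf4a*) were called lower and none higher by edgeR, although *Alb* (0.41) was called higher by DESeq2 and limma-voom. Their median log2 fold change was -0.20, and their summed level was 42705 to 49551 CPM in the control livers and 48353 to 54900.4 CPM with AAV-TuD. *Alb*, the most abundant of them, was at 17183 to 23294 CPM in the control livers and at 25664 to 33269 CPM with AAV-TuD. Of the stellate cell markers, 9 of 11 were higher, with a summed level of 214 to 273 CPM in the control livers and 366 to 488 CPM with AAV-TuD, and of the Kupffer cell markers 6 of 10 (153 to 191 CPM and 166 to 389.6 CPM). All 5 tested cholangiocyte markers were higher (85.7 to 122 CPM and 151 to 189 CPM), and none of 10 endothelial markers was called by edgeR, DESeq2 or limma-voom or had an unadjusted p under 0.05 in edgeR. *Ptprc* was higher (0.70, adjusted p = 0.0296) and *Cela1*, of the pancreatic list, lower (-1.04, adjusted p = 0.0112). Of 11 adipocyte markers 4 were tested, with a summed level of 17.6 to 21.9 CPM in the control livers and 22.9 to 30.9 CPM with AAV-TuD, and 1 of them, *Pparg*, was higher. The median log2 fold changes of the stellate, Kupffer, cholangiocyte and adipocyte lists were 0.79, 0.91, 1.46 and 0.64. The part of these cell types in the differences of *Me1* and *Mlxipl* was not tested. The single hepatocyte markers lay between -0.40 (*Apob*) and 0.41 (*Alb*) around the list median of -0.20, and *Me1* and *Mlxipl* were at -1.00 and -0.30.

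The windows around the starts of the 2 genes that were called lower are shown with the motif letters searched in capitals (RefSeq, GRCm38.p6, 250 bases before to 50 after the start, in the direction of transcription). The letters of the CCAAT box and of the GC box, which is GGGCGG, were searched on both strands. So were those of the E-box, which is CACGTG. The sterol regulatory element was searched as TCACNCCAC, and the carbohydrate response element as pairs of E-boxes 5 bases apart, so that it overlaps the E-box.
Me1, minus strand, chr9:86695865-86696164: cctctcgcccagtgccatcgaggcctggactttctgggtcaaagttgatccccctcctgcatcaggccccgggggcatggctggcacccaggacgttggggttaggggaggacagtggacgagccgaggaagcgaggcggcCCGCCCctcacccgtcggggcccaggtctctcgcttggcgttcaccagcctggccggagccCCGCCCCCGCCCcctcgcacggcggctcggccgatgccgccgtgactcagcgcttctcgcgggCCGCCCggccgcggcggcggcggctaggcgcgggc
Me1, minus strand, chr9:86687228-86687527: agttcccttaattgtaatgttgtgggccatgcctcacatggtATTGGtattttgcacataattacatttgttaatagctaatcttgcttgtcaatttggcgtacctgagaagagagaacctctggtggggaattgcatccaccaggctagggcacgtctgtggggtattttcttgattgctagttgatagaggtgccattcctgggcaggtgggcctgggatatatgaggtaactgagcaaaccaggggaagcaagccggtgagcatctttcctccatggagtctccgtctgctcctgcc
Mlxipl, plus strand, chr5:135089640-135089939: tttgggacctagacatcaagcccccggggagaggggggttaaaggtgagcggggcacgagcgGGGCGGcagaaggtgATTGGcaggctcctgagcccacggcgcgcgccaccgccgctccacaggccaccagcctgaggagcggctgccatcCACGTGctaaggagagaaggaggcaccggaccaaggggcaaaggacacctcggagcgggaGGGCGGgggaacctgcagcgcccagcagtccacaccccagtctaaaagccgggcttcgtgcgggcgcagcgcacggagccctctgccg
Mlxipl, plus strand, chr5:135106641-135106940: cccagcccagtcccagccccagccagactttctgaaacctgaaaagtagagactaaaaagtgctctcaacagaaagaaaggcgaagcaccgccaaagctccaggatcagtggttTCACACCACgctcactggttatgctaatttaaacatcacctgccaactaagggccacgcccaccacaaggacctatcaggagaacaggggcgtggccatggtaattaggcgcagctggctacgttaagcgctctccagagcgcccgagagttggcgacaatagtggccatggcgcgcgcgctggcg
Windows of 9 of the 10 listed genes were matched, all but *Scd1*, as 11 windows in all. The sterol regulatory letters were found in 1 of the 11 windows, the second one of *Mlxipl*, at -136 to -128 from its start, and in 1.24% of 32851 promoters. The E-box was also found in 1 of the 11, the first window of *Mlxipl*, at -98 to -93, and in 7.15% of promoters. CCAAT was present in 7 of 11 windows and in 37.4% of promoters, and the GC box in 4 of 11 windows and in 35.7% of promoters. The first window of *Me1* held the GC box 4 times and no CCAAT, and the second held CCAAT once, read on the opposite strand (ATTGG as printed), at -208 to -204 from its start, and no GC box. The letters used for the carbohydrate response element were in none of the 11 windows and in none of the 32851 promoters. A pattern found in no promoter cannot tell the members from other genes. Its looser form, with any 2 bases inside each E-box, was in none of the 11 windows and in 0.767% of promoters. Elements with other letters or outside these windows were not searched, so the genes may still hold one.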

How the data were processed

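QuantSeq 3′ libraries were made by the authors from 500 ng of liver RNA. Reads were trimmed with BBDuk, aligned to GRCm38 with STAR 2.5.3a and assigned to genes with Rsubread, and the authors deposited raw read counts with no normalization. The annotation, strand setting and handling of reads with several matches are not given in the sources used here. Columns were assigned to livers by the library names in the sample descriptions, and no column of other samples was used.

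A gene entered the test when 5 or more livers held more than 10 of its reads. The test was that of edgeR 4.0.16 by quasi-likelihood (R 4.3.3) with TMM factors between 0.667 and 1.24 and Benjamini-Hochberg adjustment over 13334 genes. A prior count of 2 was added for log2 CPM, and all CPM were scaled by TMM. Intervals are from the total degrees of freedom of the fit, which add prior to residual degrees of freedom. Correlations used the 86400 orders of livers within groups, and ratios the 462 splits of the livers, both enumerated exactly. Alternatives were DESeq2 1.42.0 (the test of the authors, in their version 1.38.3), its size factors, no filter, filterByExpr, upper-quartile factors, library size alone, removal of *Mup* genes, limma-voom (limma 3.58.1) with quality weights, and each liver left out. Removal of the 3 livers with over 25% *Mup* reads and the read ratios were added after the data were seen. The members and gene lists were chosen with earlier results of these data known, and the lists were written from general knowledge. Named genes are the members, up to 6 called genes per pathway list, a fixed set of pathway genes, the 8 genes closest to the members, and the most abundant marker per cell type. Genes named beyond these were chosen after their values were seen, namely *G6pdx*, *Pgd*, *Idh1*, *Apob*, *Hnf4a*, *Pparg* and the overlapping gene *Gm43500*. Some genes that this rule names are counted in their lists and not reported here by name. No other gene was at least 90% identical to the last 1000 bases of the members' transcripts over 100 bases.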

Additional observations from a re-analysis of the deposited data

Results flagged for a closer look

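In 8 of 114 groups of livers, from 57 genes, the highest or lowest liver stood apart from the rest of its group by Dixon's test, where chance gives about 1 in 20, and no member was among them. AAV-TuD liver 3 was the highest of its group for *Khk* (124 CPM against 101 CPM in the next liver, gap 0.639 of the range), *Tkfc* (128 against 93.5 CPM, 0.662) and *Lpin1* (64.3 against 41 CPM, 0.699). In AAV-TuD liver 4, *Fads1* was lowest (119 against 130 CPM, 0.672) and *Pdk4* highest (2.19 against 1.71 CPM, 0.751). *Nr0b2* was highest in AAV-TuD liver 11 (22.7 against 15 CPM, 0.651), *Alb* in AAV-TuD liver 9 (33269 against 28123 CPM, 0.677) and *Nr1h3* in AAV-NC liver 8 (40.8 against 34.6 CPM, 0.73).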

How the results depend on the processing

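*Me1* kept its direction and its call under every alternative run. The number of members called fell from 2 to 1 with upper-quartile factors and with library size alone, and lay between 1 and 2 with single livers left out; the gene lost was *Mlxipl*. The number of called genes in the 7 lists around the members was 17, between 12 and 26 with single livers left out, the highest without AAV-TuD liver 3. The number of correlated pairs was 3, rose to 6 with library size alone and lay between 0 and 1 with single livers left out. The number of all genes called was 1543 and fell to 1013 without AAV-TuD liver 4. Members with a seed match rose from 0 to 6 with bases 2 to 7. Of the 9 members' values, 7 of 81 changed sign in other settings and 4 of 99 with a liver left out.

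With library size alone, which moves the median gene to 0.23, signs changed for *Acly* (0.06), *Scd1* (0.04), *Elovl6* (0.08), *Thrsp* (0.08), *Srebf1* (0.10), *Nr1h3* (0.21), *Insig1* (0.09), *Slc25a1* (0.19), *Elovl5* (0.05), *Erhrt-ps* (0.05), *Top3b* (0.17) and *Gm12599* (0.15). In limma-voom they changed for *Fasn* (0.00), *Mid1ip1* (-0.02), *Sanbr* (-0.02) and *Nbn* (-0.04). Without the 3 livers with most *Mup* reads they changed for *Fasn* (-0.07), *Acaca* (-0.05), *Mid1ip1* (-0.08), *Gpam* (-0.04), *Sanbr* (-0.11), *Nbn* (-0.14) and *Cdkn2aipnl* (-0.01). With single livers left out, the range crossed 0 for *Fasn* (-0.05 to 0.22), *Thrsp* (-0.34 to 0.08), *Slc40a1* (-0.03 to 0.17), *Srebf1* (-0.32 to 0.09), *Nr1h3* (-0.08 to 0.06), *Mid1ip1* (-0.09 to 0.19), *Elovl5* (-0.31 to 0.01), *Gpam* (-0.03 to 0.23), *Top3b* (-0.09 to 0.02), *Sanbr* (-0.04 to 0.11) and *Nbn* (-0.07 to 0.07), and reached it for *Acaca* (0.00 to 0.14) and *Slc25a1* (-0.06 to 0.00). None of these genes was called in the edgeR test. Apart from the change of scaling, the cause was not tested. No paired analysis was possible because the groups share no replicate numbers. Depth limits *Pdk4*, *Gpat3*, *Fads3* and *Pklr*, which had as few as 3, 6, 13 and 19 reads in a liver.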
